A study of Rattus norvegicus with 10 samples.

Results

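The regulators of G protein signalling (RGS) described here were 10 genes, Rgs2, Rgs3, Rgs4, Rgs7, Rgs8, Rgs9, Rgs10, Rgs12, Rgs14 and Rgs16, measured in the paraventricular nucleus of dehydrated and control rats. Their members were all probe sets whose array annotation gives exactly 1 gene symbol equal to one of these names, which came to 16 of the 31042 probe sets of the array without its controls. The rule used no measured value. The nuclei came from male Sprague Dawley rats of 10 to 12 weeks, dehydrated for 3 days or kept as controls, with no genetic change named in the labels. Each group had 5 pools of tissue from 5 animals, measured on 1 Affymetrix Rat Genome 230 2.0 array per pool. The samples' labels name the paraventricular nucleus, while the design text names the supraoptic nucleus, and the sample labels were followed.

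RGS proteins shorten signals from G protein-coupled receptors. They bind the active alpha subunit of a G protein and speed up its hydrolysis of GTP, so that the alpha and beta-gamma subunits come together again. The paraventricular nucleus holds magnocellular neurons, which release vasopressin and oxytocin into the blood, and parvocellular neurons, which control the pituitary, and many inputs to these cells act through such receptors. The R4 subfamily (Rgs2, Rgs3, Rgs4, Rgs8 and Rgs16) holds mostly small proteins with little besides the RGS domain. The R7 subfamily (Rgs7 and Rgs9) works as a complex with the beta subunit Gnb5 and an anchoring protein such as Rgs7bp. The R12 subfamily (Rgs10, Rgs12 and Rgs14) acts mainly on inhibitory alpha subunits, and Rgs12 and Rgs14 also carry Ras-binding and GoLoco domains.

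No RGS probe set passed the test for a difference between dehydrated and control pools. Of the 16 probe sets, 13 had a mean signal over all arrays of 24.1 or more, the 40th percentile of the array, and were tested, and these covered all 10 genes. In limma, a linear model that shares variance information across probe sets, 0 of the 13 were called at an adjusted p of 0.05, where 0.58% of all 18629 probe sets tested were called, and 2 had an unadjusted p under 0.05, where 12.7% of all had. Both of these lay higher in dehydrated pools: 1 of the probe sets of Rgs4 by a fold of 1.32 and 1 of Rgs2 by a fold of 1.26. The second probe set of each gene lay closer to no difference. Of the 13, 6 differences were positive, where 48.8% of all were, and 7 negative, and their median was -0.016 on the log2 scale, against -0.0048 over all probe sets tested. In none (0) of the 13 did all dehydrated values lie on one side of all control values, which was the case for 3.36% of all. All log2 differences below are dehydrated minus control on the scale log2(signal + 3.72), with the standard error of the limma fit, and adjusted p are from that fit with Benjamini-Hochberg adjustment over all probe sets tested.

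The promoters of Rgs2 and Rgs4 are shown because these genes held the smallest p among the members. RefSeq (build GRCr8) had an entry for all 10, and 250 bases before the annotated start were searched on both strands. The cAMP response element TGACGTCA was present in 0 of the 10 and in 1.59% of all 33469 promoters. The shorter core TGACG was present in 3 of the 10, those of Rgs2, Rgs3 and Rgs4, and in 18.2% of all, counting cores inside a full element. The letters TATAAA were present in 2 of the 10, those of Rgs3 and Rgs4, and in 12.9% of all. GC boxes (GGGCGG) were present in 7 of the 10 and in 30.5% of all. These matches are descriptions of the letters, not of binding. Capitals below mark the core, read on the opposite strand, and TATAAA. The Rgs2 stretch is chr13:58352667-58352916 and the Rgs4 stretch chr13:84475885-84476134, both GRCr8, minus strand, 5′ to 3′:
Rgs2: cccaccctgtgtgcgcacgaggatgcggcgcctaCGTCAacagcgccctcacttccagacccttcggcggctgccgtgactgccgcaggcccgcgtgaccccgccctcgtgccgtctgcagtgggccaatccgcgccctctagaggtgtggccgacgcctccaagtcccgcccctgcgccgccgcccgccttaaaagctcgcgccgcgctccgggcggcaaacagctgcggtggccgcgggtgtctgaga
Rgs4: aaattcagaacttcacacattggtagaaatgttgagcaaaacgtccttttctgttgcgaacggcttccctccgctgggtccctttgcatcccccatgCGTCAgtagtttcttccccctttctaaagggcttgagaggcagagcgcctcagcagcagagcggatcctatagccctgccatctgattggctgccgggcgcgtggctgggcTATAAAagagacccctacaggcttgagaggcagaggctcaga

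By the gene order of the same assembly, 5 of the 10 members lie on chromosome 13. There Rgs8 and Rgs16 are direct neighbours, Rgs4 lies beside Rgs5, and Rgs2 lies beside Rgs13 and then Rgs1. Rgs5 had a log2 difference of 0.23 ± 0.14 (adjusted p = 0.520), without passing, and Rgs8 and Rgs16 both had negative differences that did not pass either.

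Rgs4, which acts on inhibitory and Gq alpha subunits and is abundant in brain neurons, had the probe set with the largest difference among the 13 tested. Its probe set 1368505_at had signals of 958, 743, 757, 871 and 719 in dehydrated replicates 1 to 5 and of 737, 503, 551, 708 and 583 in control replicates 1 to 5. Of the dehydrated pools, 4 lay above every control, and dehydrated replicate 5 lay below control replicate 1, so the groups overlapped at that point. The means were 810 ± 102 and 616 ± 101 (SD, n = 5 each), a log2 difference of 0.40 ± 0.10 that did not pass (adjusted p = 0.0998; exact two-sided permutation p = 0.0159, unadjusted). The second probe set, 1368506_at, had 90.5, 96.3, 84.1, 106 and 80.5 in dehydrated and 99.5, 79.6, 80.1, 65.8 and 94.0 in control pools. These ranges overlapped for most pools, and the difference was 0.13 ± 0.12 (adjusted p = 0.684).

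Rgs2, which is selective for Gq alpha subunits and is induced by many stimuli, had the next largest difference among the tested probe sets. Probe set 1368144_at had signals of 142, 145, 167, 165 and 130 in dehydrated replicates 1 to 5 and of 108, 122, 102, 135 and 124 in control replicates 1 to 5. As with Rgs4, 4 dehydrated pools lay above every control, and only dehydrated replicate 5 lay within the control range. The means were 150 ± 15.7 and 118 ± 13.3 (SD, n = 5 each), a log2 difference of 0.34 ± 0.10 that did not pass (adjusted p = 0.147; exact two-sided permutation p = 0.0159, unadjusted). The other probe set, 1387074_at, had 432, 457, 515, 488 and 435 in dehydrated and 411, 510, 482, 528 and 428 in control pools. All 5 of its dehydrated values lay within the control range, with a difference of -0.016 ± 0.079 (adjusted p = 0.952).

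**Figure D1:**
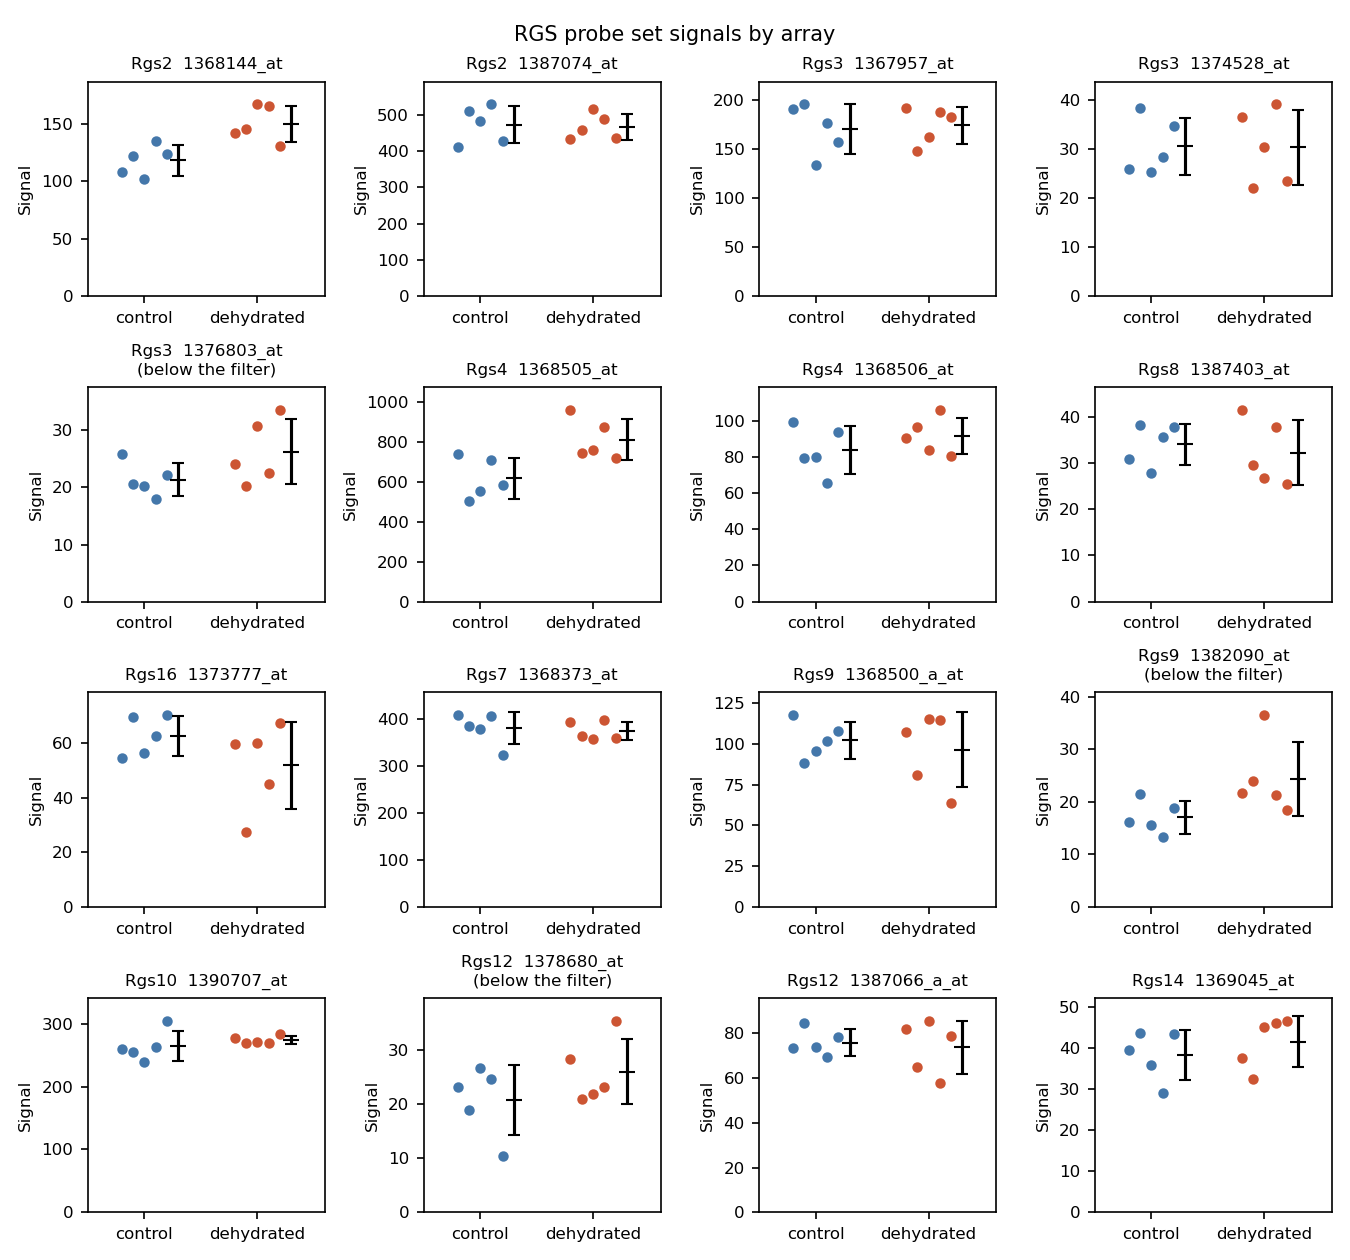
Signal of each of the 16 RGS probe sets (y axes, linear signal from 0) in control (blue) and dehydrated (red) pools, 1 point per array in replicate order, with the mean and SD in black; 3 probe sets did not pass the filter on low signal. The dehydrated points of Rgs4 1368505_at and Rgs2 1368144_at sit mostly above the control points, with 1 dehydrated array of each inside the control range. The other tested probe sets have more dehydrated arrays inside that range.

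The probe sets of Rgs2 had log2 differences of 0.34 (1368144_at) and -0.016 (1387074_at), and neither was called. Their log2 ratio within each array, 1368144_at over 1387074_at, was -1.58, -1.63, -1.60, -1.54 and -1.71 in dehydrated and -1.89, -2.03, -2.21, -1.94 and -1.76 in control replicates 1 to 5. Every dehydrated ratio lay above every control ratio, the highest control being replicate 5. The mean ratio was higher in dehydrated pools by 0.35 (exact two-sided permutation p = 0.0079, n = 5 each, the smallest that 252 assignments can give). The adjusted p of that test over the 7 pairs of member probe sets was 0.0556, which did not pass the threshold. This comparison was chosen after the values were seen. The array annotation ties both probe sets to Rgs2 alone, and which part of the transcript each reads was not used here. For the 2 probe sets of Rgs4 the ratio differed by 0.27 (exact permutation p = 0.127, adjusted p = 0.296), with overlapping groups. The overlap came from control replicate 4, at 3.35. The other controls lay from 2.59 to 2.84, below every dehydrated ratio (2.90 to 3.35). A ratio shows unequal change of 2 probe sets and does not say which of them moved.

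**Figure D2:**
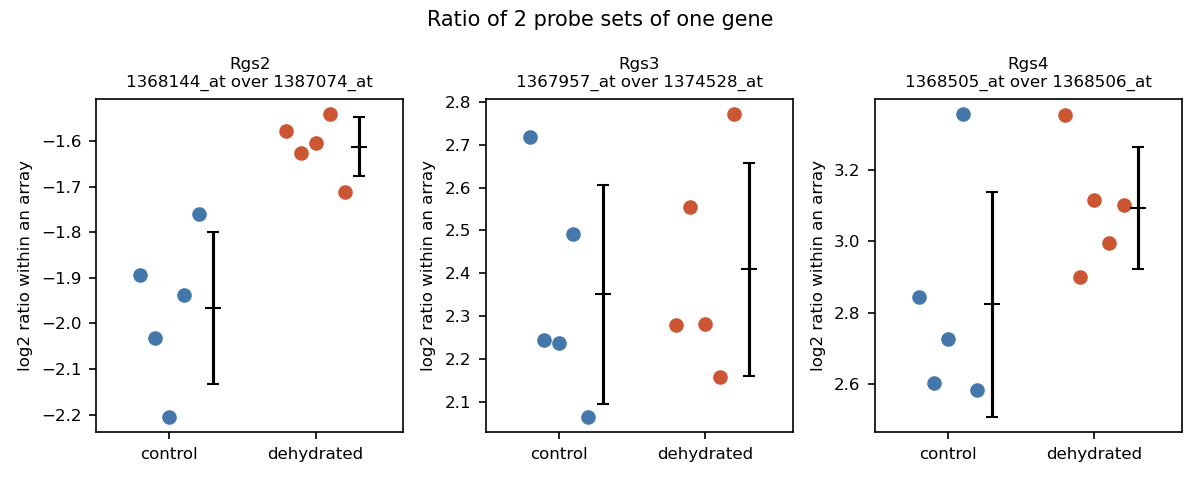
Log2 ratio of 2 tested probe sets of one gene within each array (y axes) for Rgs2, Rgs3 and Rgs4, in control (blue) and dehydrated (red) pools, 1 point per array, with the mean and SD in black. For Rgs2 the dehydrated arrays lie from -1.71 to -1.54 and the controls from -2.21 to -1.76, while the groups of Rgs3 and Rgs4 overlap.

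The tested probe sets of the remaining R4 genes, Rgs3, Rgs8 and Rgs16, had differences from -0.30 to 0.036. Rgs16, a small R4 protein known for its rhythmic expression in the suprachiasmatic nucleus, had 59.8, 27.5, 60.1, 45.1 and 67.5 in dehydrated and 54.4, 69.7, 56.5, 62.7 and 70.2 in control pools. Dehydrated replicates 2 and 4 lay below every control and the other dehydrated pools lay within the control range. Its difference was -0.30 ± 0.18 (adjusted p = 0.512), and -0.11 without dehydrated replicate 2 (adjusted p = 0.754). Rgs8, which speeds the gating of G protein-activated potassium channels, had 25.5 to 41.5 in dehydrated and 27.9 to 38.2 in control pools, a difference of -0.086 ± 0.16 (adjusted p = 0.859).

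Rgs3, whose long forms carry further domains, had 3 probe sets that differed in sign without any call. The first, 1367957_at, had 192, 147, 162, 187 and 182 in dehydrated and 190, 195, 133, 176 and 157 in control pools, a difference of 0.036 ± 0.11 (adjusted p = 0.918). The second, 1374528_at, had 36.5, 22.0, 30.3, 39.0 and 23.5 against 25.8, 38.2, 25.3, 28.3 and 34.7, a difference of -0.022 ± 0.18 (adjusted p = 0.971). The third, 1376803_at, had a mean of 23.8 over all arrays, just under the filter at 24.1, and had 24.2, 20.3, 30.8, 22.5 and 33.6 in dehydrated and 25.9, 20.6, 20.3, 17.9 and 22.2 in control pools. In the fit without a filter it gave 0.24 ± 0.18 (adjusted p = 0.669). The groups overlapped in all 3.

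Among the R7 genes, Rgs7, a broadly expressed brain member, had one of the smallest spreads. It ran from 359 to 399 in dehydrated and from 325 to 409 in control pools, with means of 375 ± 19.6 and 381 ± 34.0 (SD, n = 5 each) and a difference of -0.019 ± 0.072 (adjusted p = 0.936). Rgs9, best known from photoreceptors and striatal neurons, had 107, 80.9, 115, 115 and 63.9 in dehydrated and 117.5, 88.5, 95.4, 102 and 108 in control pools at 1368500_a_at. Dehydrated replicates 2 and 5 lay below every control there, and the difference was -0.11 ± 0.14 (adjusted p = 0.792). Its other probe set, 1382090_at, fell below the filter, with 21.7, 24.0, 36.5, 21.4 and 18.5 in dehydrated and 16.1, 21.5, 15.6, 13.4 and 18.8 in control pools. There 3 dehydrated pools lay above every control, opposite in sign to the first probe set. In a fit without the filter its difference was 0.42 ± 0.20 (adjusted p = 0.499).

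The tested probe sets of the R12 genes had differences of at most 0.11 in size. Rgs10, a short R12 protein that is prominent in microglia as well as neurons, ran from 269 to 284 in dehydrated and from 240 to 305 in control pools, with a difference of 0.055 ± 0.071 (adjusted p = 0.787). Its highest control was replicate 5, and the other 4 controls lay below every dehydrated pool. Without control replicate 5 the difference was 0.11 (adjusted p = 0.447). Rgs14, which is enriched in hippocampal area CA2, had 32.4 to 46.6 in dehydrated and 29.1 to 43.6 in control pools (0.11 ± 0.15, adjusted p = 0.793). Rgs12 at 1387066_a_at had 81.9, 64.9, 85.6, 57.6 and 78.7 in dehydrated and 73.3, 84.7, 73.7, 69.4 and 78.4 in control pools, a difference of -0.051 ± 0.12 (adjusted p = 0.889). Dehydrated replicates 2 and 4 lay below every control and replicate 3 above. Its other probe set, 1378680_at, was below the filter, with 28.4, 20.9, 21.9, 23.2 and 35.4 against 23.2, 18.9, 26.6, 24.7 and 10.4, and gave 0.31 ± 0.23 (adjusted p = 0.677) in the fit without a filter.

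**Figure D3:**
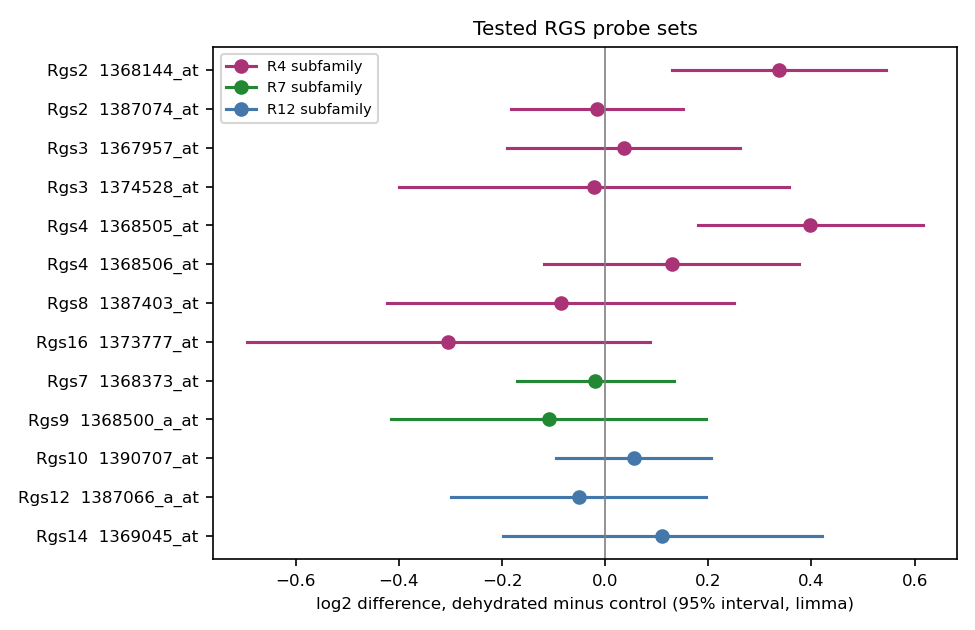
Log2 difference, dehydrated minus control, of the 13 tested RGS probe sets (x axis) with its 95% interval from limma, coloured by subfamily. The intervals of Rgs2 1368144_at and Rgs4 1368505_at lie above 0, without adjustment for the number of probe sets, and the other 11 include 0.

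By subfamily, the 8 tested R4 probe sets had 4 positive and 4 negative differences, from -0.30 to 0.40, the 2 of R7 were both negative, and 2 of the 3 of R12 were positive. The 95% interval of the log2 difference, not adjusted for the number of probe sets, lay within a 1.5-fold change in either direction for 11 of the 13. The exceptions were Rgs4 1368505_at, from 0.18 to 0.62, and Rgs16, from -0.69 to 0.086.

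Other genes of G protein signalling were read from lists, with the probe set of highest mean signal for each gene. Of 77 tested genes listed for G protein subunits, receptors, receptor kinases, arrestins, effectors and modulators, 1 rose and 0 fell in limma. Of all probe sets tested, 0.397% were called higher and 0.183% lower. The median difference of the 77 was 0.013. The gene that rose was Rasd1, a Ras-like protein that modulates G protein signalling, with 246 ± 21.9 in dehydrated against 136 ± 5.60 in control pools (log2 0.83 ± 0.08, adjusted p = 3.9e-05). Of the 7 tested genes for other proteins with an RGS domain, 0 passed in limma and 4 were positive. None (0) of the 7 had an unadjusted p under 0.05, where 12.7% of all probe sets tested had.

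The tested partners and substrates of the members gave no call. For the R7 complex, Gnb5 differed by 0.0042 ± 0.060 (adjusted p = 0.983), the anchor Rgs7bp by 0.26 ± 0.14 (adjusted p = 0.451) and the orphan receptor Gpr158, which binds R7 proteins, by 0.13 ± 0.06 (adjusted p = 0.365). All 5 dehydrated values of Gpr158 lay above the 5 controls, as did those of Rasd1 and of Cnr1, named below, and as was the case for 1.94% of all probe sets. Of the 8 tested alpha subunits, out of 11 on the array, 4 were positive and 4 negative. Among them were Gnao1 at 0.074 and Gnai1 at -0.22 (adjusted p = 0.790 and 0.526). The Gq alpha subunit Gnaq had no tested probe set. Gnas, the stimulatory alpha subunit, differed by 0.18 ± 0.07 (adjusted p = 0.284). Of the 14 beta and gamma subunits Gng3 had the smallest p, at 0.27 ± 0.07 (adjusted p = 0.103).

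The tested receptors and effectors upstream and downstream of the members did not pass either. Of the receptors listed as Gq and Gs coupled, 16 were on the array and 5 were tested. Npr1 (log2 -0.45, adjusted p = 0.299) was counted there and among the 77, though it is a guanylyl cyclase, not a G protein-coupled receptor. The angiotensin receptor gene Agtr1a, which signals through Gq, had 86.5 ± 12.4 in dehydrated and 58.1 ± 12.8 in control pools (log2 0.56 ± 0.14, adjusted p = 0.0906). The cannabinoid receptor Cnr1 differed by 0.24 and the dopamine receptor Drd2 by -0.47, with adjusted p of 0.150 and 0.107. Among 21 effectors, the potassium channel subunit Kcnj6 differed by -0.30 ± 0.08 and the adenylyl cyclase Adcy8 by -0.41 ± 0.11, with adjusted p of 0.107 and 0.103. For Drd2, Kcnj6 and Adcy8 all dehydrated values lay below all controls, within the 3.36% of all probe sets whose groups did not overlap. A second probe set of Kcnj6 was at 0.096. The 5 tested receptor kinases and arrestins had 1 positive and 4 negative differences.

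**Figure D4:**
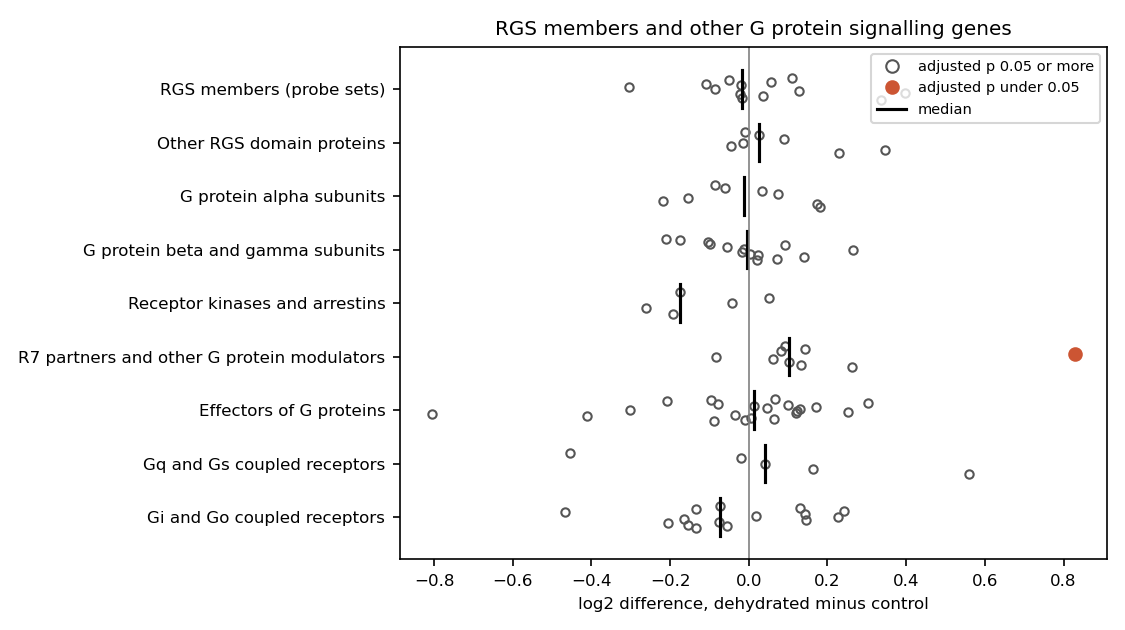
Log2 difference, dehydrated minus control (x axis), of the 13 tested RGS probe sets and of the tested genes of each G protein signalling list, 1 point per probe set or gene, with the list median as a black bar. The single filled point, Rasd1 at 0.83, is the one with an adjusted p under 0.05.

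Markers of the labelled tissue were read with the members, beside those of other cells. Of all marker lists the called genes were the oligodendrocyte gene Ermn (log2 -0.63, adjusted p = 0.0255) and the globin gene Hbb (log2 -0.67, adjusted p = 0.0305), both lower in dehydrated pools. All 6 tested markers of paraventricular neurons had positive differences, with a median of 0.30 and 0 called in limma. Of these 6, 3 had an unadjusted p under 0.05, where 12.7% of all probe sets tested had. Of the 13 tested RGS probe sets, 6 were positive, 1368505_at of Rgs4 and 1368144_at of Rgs2 among them, and 7 negative. Vasopressin (Avp) had 4957 ± 642 in dehydrated and 3531 ± 633 in control pools (log2 0.50, adjusted p = 0.0504), and oxytocin (Oxt) and somatostatin (Sst) differed by 0.24 and 0.50. Crh and Trh, made by parvocellular neurons, had 320 ± 89.7 and 651 ± 44.7 in dehydrated and 282 ± 94.3 and 615 ± 56.5 in control pools. The list summed to 10730 to 13599 in dehydrated and 8437 to 11433 in control pools. Otp and Pou3f2 of the 8 tissue markers were below the filter, with signals up to 18.8 and 1.0. Markers of neurons in general went mostly the other way. Of the 9 tested, 2 were positive and 7 negative, with a median of -0.12 and 0 called in limma. These 9 summed to 10471 to 11739 in dehydrated and 11276 to 11945 in control pools.

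Markers of neighbouring hypothalamus had mostly negative differences. Of the 4 tested genes of the anterior, lateral and posterior hypothalamus 0 were called in limma. Of these 4, 3 had an unadjusted p under 0.05, where 12.7% of all probe sets tested had, and the median difference was -0.58. Hypocretin (Hcrt) differed by -1.28, Hdc by -0.67 and Nkx2-1 by -0.50 (adjusted p = 0.233, 0.135 and 0.205), Hdc with groups that did not overlap, and Pmch by 0.018. The list summed to 3276 to 5932 in dehydrated and 4059 to 6914 in control pools. Of the 11 tested oligodendrocyte markers 1 was called lower in limma, where 0.183% of all probe sets tested were, and 10 were negative. In 8 the unadjusted p was under 0.05 and in 3 the groups did not overlap (12.7% and 3.36% of all probe sets tested). Their signals summed to 7344 to 7683 in dehydrated and 7918 to 9587 in control pools. The 8 tested microglial markers, 7 of them negative, summed to 898 to 1010 in dehydrated and 989 to 1091 in control pools. Of the 7 tested striatal markers 5 were negative, Drd2 at -0.47 among them. The 7 summed to 1462 to 1949 in dehydrated and 1551 to 1893 in control pools, mostly from Penk (1250 ± 196 and 1140 ± 139). For the suprachiasmatic nucleus 3 markers were tested and 0 called in limma. Lhx1 differed by -0.36, Six6 by -0.12 and Rorb by 0.24 (adjusted p = 0.320, 0.866 and 0.467). Vip was below the filter, at 2.9 to 19.2. Fewer cells of a type and less RNA per cell cannot be told apart in such pools, and the part of these markers in the RGS values was not tested. On the first principal component, control replicate 5 lay at 37.2 and the other arrays from -14.4 to 3.69. It also had the lowest log2 3 prime over 5 prime ratios of the RNA quality controls, at 1.05 for Gapdh, where the others had 1.34 to 1.84, and at 2.16 for beta-actin, where the others had 2.60 to 3.07. Without it, the differences of Rgs4 1368505_at and Rgs2 1368144_at were 0.38 and 0.36 (adjusted p = 0.119 and 0.120).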

How the data were processed

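The authors deposited linear probe set signal intensities, 1 per probe set and array, computed with GCOS 1.2, as the submitters' processing notes name it. How GCOS was set for signal and background is not given in the sources used here. Array medians ran from 36.4 to 39.1, and the mean after trimming 2% at each end was 99.7 or 99.8 on each array, so the arrays had been scaled to a common level. The pseudocount below makes differences of dim probe sets smaller.

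Control probe sets (57) were left out. The signals were not rescaled. A pseudocount of 3.72, set as 0.1 of the median array median, was added before log2. Probe sets whose mean reached the 40th percentile (24.1) were tested, with lmFit and eBayes (trend) in limma 3.58.1 (R 4.3.3), as a two-sided test at a threshold of 0.05. The fit was tested on simulated data. Groups came from the labels, and replicates were numbered in accession order. Nothing pairs them across groups. The labels call the pools independently prepared. No array date was used and the labels name no batch, so a batch that followed the groups could not be told apart from them. The number in the title of control replicate 5 stands apart from the consecutive ones of the other controls, and its meaning is not given. The number of arrays limits the precision. The log2 ratios of the 3 prime to the 5 prime controls overlapped between the groups, with control replicate 5 lowest (exact permutation p = 0.254 for Gapdh and 0.516 for beta-actin, n = 5 each).

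Members and lists were chosen with earlier results of these data known. All member probe sets are described. Values by array are given for the 4 of smallest p and for genes whose probe sets differ in sign. Of each list, named genes are those past the threshold, up to 4 of smallest p, and a set of partners and tissue markers. The table gave 1 symbol to 20826 probe sets, several to 436 and none to 9780. Alternatives tried were quantile normalization and median centring, pseudocounts of 0.93, 14.88 and 64, no filter or one at the 60th percentile, array weights, robust eBayes and eBayes with no trend, leaving out single arrays, the mean over a gene's probe sets, and exact permutation.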

Additional observations from a re-analysis of the deposited data

How the results depend on the processing

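The count of RGS probe sets called was 0 under all 20 alternative fits across the array. The lowest adjusted p were 0.0626 for Rgs4 1368505_at, without control replicate 1, and 0.0868 for Rgs2 1368144_at, with array weights. Their differences ran from 0.33 to 0.47 and from 0.29 to 0.39 with each array left out, and the mean over both probe sets of the gene gave 0.26 and 0.16. Over all probe sets 108 were called, with 64 without a filter, 45 without the variance trend, 201 with array weights and 46 to 150 with each array left out. Signs turned only for differences of at most 0.11 in size. With each array left out, the range was -0.064 to 0.026 for Rgs2 1387074_at, -0.048 to 0.093 for Rgs3 1367957_at, -0.11 to 0.071 for Rgs3 1374528_at, -0.075 to 0.0068 for Rgs7, -0.18 to 0.023 for Rgs9, -0.11 to 0.030 for Rgs12 and -0.033 to 0.15 for the ratio of the first pair of Rgs3. Array weights gave 0.016 for Rgs3 1374528_at. The mean over a gene's tested probe sets was 0.0069 for Rgs3 and 0.16 for Rgs2, opposite in sign to Rgs3 1374528_at and Rgs2 1387074_at. These means average in the gene's other tested probe set, which was positive. The cause of the other sign changes was not tested. The Rgs2 ratio stayed positive, from 0.25 to 0.40, with permutation adjusted p from 0.0556, the lowest for 1 pair alone, to 0.111. The Rgs4 ratio also stayed positive, from 0.20 to 0.40, with permutation adjusted p from 0.0556 to 0.546. After adjustment over all probe sets the exact permutation test cannot pass, its smallest adjusted p being 0.236. No paired analysis was possible because the labels give no replicate numbers. No detection calls were used, so whether a dim probe set lay above background was not tested.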

Other observations

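For some genes of G protein signalling with several tested probe sets, named after their values were seen, the probe sets could be set side by side. The 3 tested probe sets of Gnas all lay higher in dehydrated pools, by 0.18 ± 0.07, 0.30 ± 0.08 and 0.55 ± 0.17, with adjusted p of 0.284, 0.124 and 0.171, so none was called. Rgs17, a small RGS protein outside the 10, had 5 tested probe sets with differences from -0.13 to 0.14 and adjusted p from 0.613 to 0.893.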
